A study of Mus musculus with 8 samples.

Results

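The collagen genes other than type VI were taken as every gene name in the 8 deposited files made of Col, a number, a and a number, without those that begin Col6a. This gave 38 genes among the 24421 gene names in the files; 6 type VI genes were left out. All 8 libraries are of MCa-P1362, a mouse mammary carcinoma line raised from a tumour that a Balb/c breeder female developed spontaneously. The cells were sorted by flow cytometry for EpCAM, an epithelial adhesion protein, and the labels name 4 groups of 2 libraries: monoculture EpCAM+, monoculture EpCAM-, coculture EpCAM+ and coculture EpCAM-. All groups share the same line and medium. Sorted cells were frozen at once or after growth and a passage, and the labels do not say which of these the culture names stand for, nor whether the 2 libraries of a group are separate cultures. The p-values thus reflect library-to-library spread alone, and that spread may be technical.

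Collagens are secreted proteins of 3 chains wound into a triple helix, which needs a glycine in each triplet of residues. Fibrillar collagens are made as procollagens with a long unbroken helix, are trimmed outside the cell and form the tensile fibres that stromal cells lay down. Basement membrane collagens build the sheet on which epithelia rest, and the FACIT collagens (fibril-associated collagens with interrupted triple helices) sit on fibrils or link them to other matrix. Transmembrane collagens span the cell surface, and network-forming collagens make open lattices. In the mammary gland the epithelium lies on a basement membrane, with fibroblasts and fibrillar collagen around it.

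The glycine repeat can be read in the coding sequences, where its length sets the fibrillar genes apart from the other types. In the longest coding sequence of each of the 38 genes (GENCODE M21, mm10), runs were counted of codon triplets in which the first codon of each begins with GG, the code for glycine. The longest unbroken run was 216 to 344 triplets in the 11 fibrillar genes, with a median of 338. It was 32 to 113 in the 9 FACIT genes, 30 to 75 in the 9 basement membrane genes, 59 to 60 in the 3 network genes and 40 to 55 in the 4 transmembrane genes, so the fibrillar genes did not overlap with any other type. Col1a1, with 338 triplets, and Col1a2, with 339, encode the chains of type I collagen. Col4a1 had 40 as its longest run among 23 runs of at least 3 triplets, and Col18a1 had 30 among 17. The first 54 bases of the longest run are shown for these 4 genes, because they stand for the fibrillar genes that were highest in EpCAM- cells and basement membrane genes, the type with the largest part of collagen FPKM in both EpCAM+ groups. Capitals mark the glycine codons.
Col1a1: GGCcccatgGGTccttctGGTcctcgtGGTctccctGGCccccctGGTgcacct
Col1a2: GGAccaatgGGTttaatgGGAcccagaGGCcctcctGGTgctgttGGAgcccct
Col4a1: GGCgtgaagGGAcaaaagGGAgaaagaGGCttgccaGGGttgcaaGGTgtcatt
Col18a1: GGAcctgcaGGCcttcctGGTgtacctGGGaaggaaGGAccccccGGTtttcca

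**Figure D1:**
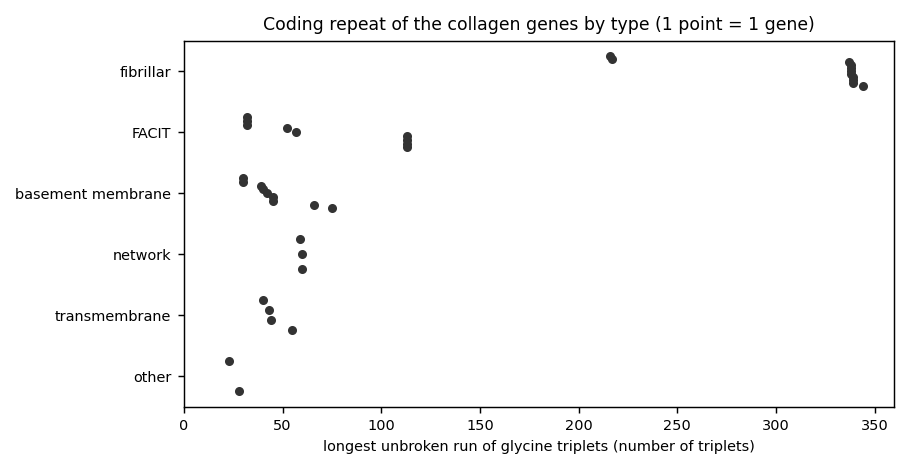
Longest unbroken run of glycine triplets (horizontal axis, number of triplets) for each of the 38 collagen genes, by type (rows; 1 point is 1 gene, spread vertically only for legibility). The fibrillar genes lie between 216 and 344 and the other types at 113 or below.

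Levels are given in FPKM as the authors deposited them, a unit that divides fragments by transcript length and library size. FPKM summed to between 387489 and 414612 per library, between 10634 and 11119 genes reached 1 FPKM, and replicate libraries correlated across genes at r = 0.998 on the log2 scale. The depth in reads is unknown; steps between low values put library sizes at 0.912 to 1.16 of that of the first monoculture EpCAM+ library. The sort labels were matched by markers, though the 12 epithelial genes include Epcam itself, so part of this match was set by the sort. These 12 genes summed to 9744 and 9843 FPKM in monoculture EpCAM+ against 19.4 and 20.5 FPKM in monoculture EpCAM-. In coculture they summed to 10549 and 10659 FPKM in EpCAM+ against 34.8 and 34.1 FPKM in EpCAM-. The 10 stromal genes that are not collagens summed to 12.05 and 11.5 FPKM in monoculture EpCAM+ against 7218 and 7110.2 FPKM in monoculture EpCAM-, and to 86.8 and 87.2 FPKM in coculture EpCAM+ against 4852 and 4839 FPKM in coculture EpCAM-. Leukocyte genes (8) summed to at most 1.43 FPKM and endothelial genes (6) to at most 1.23 FPKM in any library, with Cd3e at 0 in every library. The median log2 ratio of all genes tested was 0.23 between EpCAM+ and EpCAM- in monoculture and 0.26 in coculture. With median-of-ratios scaling these medians shifted by -0.21 and -0.26, which changed the direction of no collagen gene named as called.

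Of the 38 collagen genes, 21 were tested, having at least 1 FPKM in 2 or more libraries: 10 of 11 fibrillar, 5 of 9 basement membrane, 5 of 9 FACIT and 1 of 3 network genes, and none of the 4 transmembrane genes or of the other 2. A gene can pass this limit through the group in which it is high, so counts among the 21 describe those genes and not the whole family. Col9a1, Col13a1 and Col22a1 were at 0 in all libraries. The other 14 untested genes never passed 0.687 FPKM. Their highest values were 0.687 for Col15a1, 0.662 for Col20a1, 0.379 for Col8a2, 0.21 for Col28a1, 0.209 for Col10a1, 0.116 for Col4a6, 0.102 for Col17a1, 0.0589 for Col26a1, 0.0553 for Col24a1, 0.0536 for Col19a1, 0.0169 for Col23a1, 0.0157 for Col4a4, 0.0144 for Col4a3 and 0.0137 for Col25a1. Col17a1, a hemidesmosome collagen of basal epithelial cells, was therefore near 0 in both fractions.

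The fractions held very different amounts of collagen RNA. Summed over the 38 genes, collagen FPKM was 353 and 349.9 in the monoculture EpCAM+ libraries against 8989 and 9032 in monoculture EpCAM-, and 450.1 and 452 in coculture EpCAM+ against 9736 and 9696 in coculture EpCAM-. This was 0.085% ± 0.00065 of all FPKM in monoculture EpCAM+ against 2.29% ± 0.0369 in monoculture EpCAM-, and 0.109% ± 9.87e-05 in coculture EpCAM+ against 2.51% ± 0.0077 in coculture EpCAM- (SD, n = 2). In bulk samples, fewer cells of a type and less RNA per cell cannot be told apart.

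The mixture of types differed as well. Basement membrane genes took 73.8% ± 0.0591 of collagen FPKM in monoculture EpCAM+ against 12.1% ± 0.0692 in monoculture EpCAM-. In coculture they took 49.1% ± 0.11 in EpCAM+ against 7.05% ± 0.0331 in EpCAM-. Their mean summed FPKM was nevertheless lower in EpCAM+, at 259 against 1093 in monoculture and 221 against 685 in coculture. Fibrillar genes took 8.93% ± 0.136 in monoculture EpCAM+ against 82.2% ± 0.275 in monoculture EpCAM-, and 35.9% ± 0.00363 in coculture EpCAM+ against 88.0% ± 0.0798 in coculture EpCAM-. Col18a1 was the most abundant collagen of both EpCAM+ groups, with 31.8% of collagen FPKM in monoculture and 20.7% in coculture. Col1a1 was the most abundant of both EpCAM- groups, with 39.6% in monoculture and 43.2% in coculture. After subtraction of the stromal share described further on, the fibrillar part was 6.45% and 6.46% in monoculture EpCAM+ and 5.93% and 6.11% in coculture EpCAM+.

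**Figure D2:**
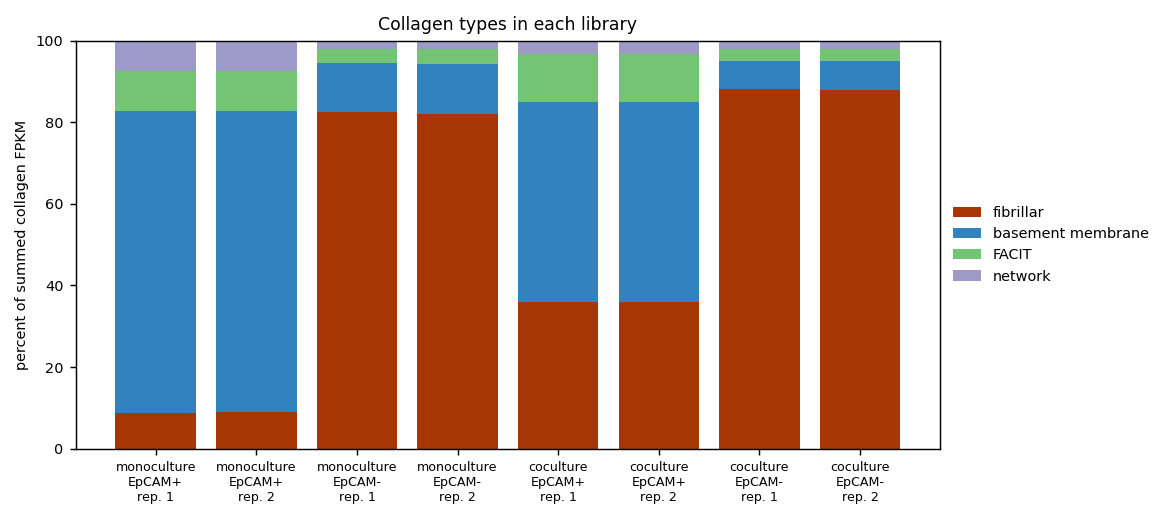
Percent of summed collagen FPKM (vertical axis) taken by each type in each of the 8 libraries (bars). Transmembrane and other collagens are at most 0.0267% each and are not drawn; basement membrane genes lead in the EpCAM+ libraries and fibrillar genes in the EpCAM- libraries.

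**Figure D3:**
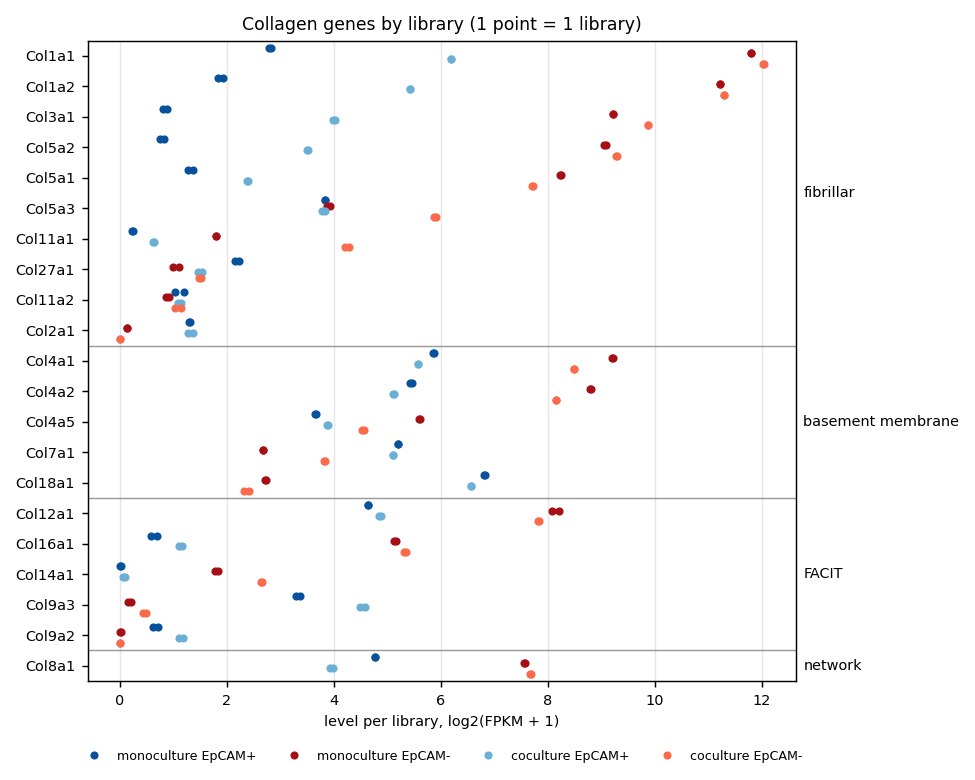
Level of the 21 tested collagen genes (rows, grouped by type) as log2(FPKM + 1) on the horizontal axis; each point is a library, 2 for each of the 4 groups. The points of a group lie close together, and the EpCAM- libraries are to the right for most fibrillar genes and to the left for Col18a1, Col7a1, Col9a3 and Col2a1.

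The comparison of EpCAM+ with EpCAM- cells asks how the sorted fractions of the line differ. In monoculture 5 of the 21 tested collagens were higher in EpCAM+ and 13 lower, at an adjusted p under 0.05 (limma, all 12012 genes tested) and a change of at least 2-fold, called here. Of all genes tested, 15.5% were called higher and 12.6% lower, which became 12.02% and 15.13% with scaling by the median of ratios. In coculture 5 were again higher and 13 lower, against 16.5% and 10.1% of all genes tested (12.4% and 12.5% with that scaling). The median log2 fold change of the 21 genes was -1.94 in monoculture and -2.92 in coculture, against 0.23 and 0.26 for all genes tested. In either direction, 28.1% of all genes were called in monoculture and 26.5% in coculture. At any size of change 20 and 19 of the 21 passed the adjusted p (limma), against 87.9% and 87.2% of all genes tested.

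The major fibrillar chains were lower in EpCAM+ by the most. Col1a1 (ENSMUSG00000001506.10, chr11:94936224-94953042) stood at 5.94 and 6.05 FPKM in monoculture EpCAM+ against 3573 and 3558 FPKM in monoculture EpCAM-, and at 72.5 and 71.8 FPKM in coculture EpCAM+ against 4223 and 4163 FPKM in coculture EpCAM-. Its log2 fold change was -8.99 (SE 0.018, adjusted p = 2.80e-14, limma) in monoculture and -5.84 (SE 0.018, adjusted p = 4.71e-13, limma) in coculture. Col1a2, the partner chain, stood at 2.57 and 2.79 FPKM in monoculture EpCAM+ against 2391 and 2393 FPKM in monoculture EpCAM-, and at 41.8 and 42.2 FPKM in coculture EpCAM+ against 2511 and 2514 FPKM in coculture EpCAM-. The fractions did not overlap for either chain in either culture. Type I collagen usually holds a pair of alpha 1 chains for each alpha 2 chain. The ratio of Col1a1 to Col1a2 FPKM was 2.24 ± 0.105 in monoculture EpCAM+ against 1.49 ± 0.00537 in monoculture EpCAM-, and 1.72 ± 0.0213 in coculture EpCAM+ against 1.67 ± 0.0185 in coculture EpCAM- (SD, n = 2).

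Col3a1, which forms fibrils together with type I in soft tissue, stood at 0.834 and 0.752 FPKM in monoculture EpCAM+ against 595 and 593 FPKM in monoculture EpCAM-. The coculture values were 14.9 and 15.2 FPKM in EpCAM+ against 938 and 943 FPKM in EpCAM-. Its neighbour Col5a2 lies 24614 bases away on chromosome 1, on the other strand, and encodes a chain of type V collagen, which starts and limits type I fibrils. It stood at 0.681 and 0.763 FPKM in monoculture EpCAM+ against 532 and 543 FPKM in monoculture EpCAM-, and at 10.3 and 10.5 FPKM in coculture EpCAM+ against 617 and 624 FPKM in coculture EpCAM-. Log2 fold changes in monoculture were -8.37 for Col3a1 and -8.29 for Col5a2, and in coculture -5.87 and -5.77 (adjusted p from 1.52e-13 to 2.15e-12, limma). All 4 groups stood apart for both genes.

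Col5a1, the main alpha 1 chain of type V, stood at 1.40 and 1.59 FPKM in monoculture EpCAM+ against 299 and 302 FPKM in monoculture EpCAM-. In coculture it stood at 4.28 and 4.22 FPKM in EpCAM+ against 208 and 211 FPKM in EpCAM- (log2 fold change -6.92 and -5.32). Col11a1, a chain of type XI collagen that nucleates fibrils in cartilage, stood at 0.179 and 0.174 FPKM in monoculture EpCAM+ against 2.47 and 2.48 FPKM in monoculture EpCAM-. It stood, in coculture, at 0.539 and 0.548 FPKM in EpCAM+ against 18.4 and 17.4 FPKM in EpCAM- (log2 fold change -1.56 and -3.61). Both fell in EpCAM+ in both cultures, and Col11a1 was far lower than the type I, III and V chains in every EpCAM- library.

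Col5a3, a less common type V chain, differed by culture. It stood at 13.4 and 13.3 FPKM in monoculture EpCAM+ against 14.2 and 13.7 FPKM in monoculture EpCAM-, a log2 fold change of -0.06 (95% interval -0.14 to 0.02, adjusted p = 0.115, limma). The coculture values were 12.8 and 13.3 FPKM in EpCAM+ against 59.2 and 57.9 FPKM in EpCAM- (log2 fold change -2.08, adjusted p = 3.05e-10, limma). The 2 EpCAM+ groups overlapped, and coculture EpCAM- stood above the other 3 groups. The ratio of Col5a3 to Col5a1 was 8.94 ± 0.822 in monoculture EpCAM+ against 0.0465 ± 0.00154 in monoculture EpCAM-, and 3.07 ± 0.123 in coculture EpCAM+ against 0.28 ± 0.00715 in coculture EpCAM- (SD, n = 2). Col5a3 was thus the highest type V chain of monoculture EpCAM+ and the lowest of monoculture EpCAM-.

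A few fibrillar genes were low everywhere. Col2a1, the main collagen of cartilage, stood at 1.47 and 1.44 FPKM in monoculture EpCAM+ against 0.0901 and 0.0999 FPKM in monoculture EpCAM-, and at 1.56 and 1.40 FPKM in coculture EpCAM+ against 0 and 0.00577 FPKM in coculture EpCAM-. It rose in EpCAM+ in both cultures (log2 fold change 1.17 and 1.31). Col27a1, a cartilage fibril collagen, stood at 3.66 and 3.46 FPKM in monoculture EpCAM+ against 0.996 and 1.15 FPKM in monoculture EpCAM- (log2 fold change 1.14). This call was lost with scaling by the median of ratios (0.98). In coculture it stood at 1.76 and 1.92 FPKM in EpCAM+ against 1.87 and 1.78 FPKM in EpCAM-, with overlapping libraries (log2 fold change 0.0062, 95% interval -0.13 to 0.14). Col11a2, another type XI chain, lay between 0.81 and 1.29 FPKM in all 8 libraries and was not called in any comparison.

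Among basement membrane genes the direction was split. Col18a1, whose C-terminal fragment is endostatin, was the highest collagen of EpCAM+. It stood at 111.9 and 111.2 FPKM in monoculture EpCAM+ against 5.59 and 5.62 FPKM in monoculture EpCAM-, and at 93.5 and 93.4 FPKM in coculture EpCAM+ against 3.97 and 4.31 FPKM in coculture EpCAM-. Its log2 fold change was 4.09 (SE 0.035, adjusted p = 1.14e-11, limma) in monoculture and 4.20 (SE 0.035, adjusted p = 1.18e-11, limma) in coculture. Col7a1, the anchoring fibril collagen under stratified epithelia, stood at 35.8 and 36.0 FPKM in monoculture EpCAM+ against 5.39 and 5.37 FPKM in monoculture EpCAM-, and at 33.5 and 33.6 FPKM in coculture EpCAM+ against 13.1 and 13.2 FPKM in coculture EpCAM- (log2 fold change 2.53 and 1.29). Both genes rose in EpCAM+ with no overlap.

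Col4a1 and Col4a2, which together form the common type IV network, went the other way. Col4a1 stood at 57.7 and 56.7 FPKM in monoculture EpCAM+ against 586 and 596 FPKM in monoculture EpCAM-, and at 46.6 and 46.9 FPKM in coculture EpCAM+ against 360.1 and 361 FPKM in coculture EpCAM- (log2 fold change -3.35 and -2.92). Col4a2 stood at 43.2 and 42.1 FPKM in monoculture EpCAM+ against 441 and 445 FPKM in monoculture EpCAM-, and at 33.6 and 33.8 FPKM in coculture EpCAM+ against 285 and 285 FPKM in coculture EpCAM- (log2 fold change -3.35 and -3.04). The ratio of Col4a1 to Col4a2 stayed close throughout: 1.34 ± 0.00612 in monoculture EpCAM+ against 1.33 ± 0.00751 in monoculture EpCAM-, and 1.39 ± 0.000887 in coculture EpCAM+ against 1.26 ± 6.28e-05 in coculture EpCAM-. Col4a5, which builds the type IV network of some specialised basement membranes, stood at 11.6 and 11.7 FPKM in monoculture EpCAM+ against 47.3 and 47.7 FPKM in monoculture EpCAM- (log2 fold change -1.94). It stood, in coculture, at 13.9 and 13.7 FPKM in EpCAM+ against 22.2 and 22.6 FPKM in EpCAM-, a log2 fold change of -0.67 (adjusted p = 8.61e-08, limma) that passed the p but not the 2-fold limit. Col4a3, Col4a4 and Col4a6 were at or near 0, as given above.

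The promoters of some of these genes are shown because their genes moved together (Col4a1 and Col4a2), or because they stood at opposite ends of the comparison (Col1a2 and Col3a1 lower, Col7a1 and Col18a1 higher in EpCAM+). Each window holds 250 bases before and 50 after a start, from RefSeq on GRCm38.p6, and 29 of the 38 genes had an entry, with 31 windows. The genes Col4a1 and Col4a2 lie head to head on chromosome 8. Their windows share 78 bases on opposite strands, and 22 bases of their exons overlap, so that reads there cannot be assigned without strand, whose use in counting is not given in the sources used here. Col18a1 has 2 starts, and the files give 1 value for the gene. Capitals mark CCAAT or TATAAA on either strand.
Col4a1 (chr8:11312777-11313076, - strand): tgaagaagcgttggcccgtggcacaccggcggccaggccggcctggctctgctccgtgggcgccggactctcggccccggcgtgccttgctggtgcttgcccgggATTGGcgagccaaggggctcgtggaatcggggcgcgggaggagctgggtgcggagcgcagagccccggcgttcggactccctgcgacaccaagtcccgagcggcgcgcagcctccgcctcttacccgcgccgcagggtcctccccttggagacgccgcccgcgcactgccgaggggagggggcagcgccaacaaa
Col4a2 (chr8:11312555-11312854, + strand): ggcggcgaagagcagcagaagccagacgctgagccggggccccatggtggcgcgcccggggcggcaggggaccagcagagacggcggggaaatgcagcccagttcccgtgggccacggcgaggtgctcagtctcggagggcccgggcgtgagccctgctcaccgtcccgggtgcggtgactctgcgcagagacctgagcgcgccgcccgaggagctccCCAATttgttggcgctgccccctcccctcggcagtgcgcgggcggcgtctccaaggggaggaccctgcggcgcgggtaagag
Col1a2 (chr6:4505368-4505667, + strand): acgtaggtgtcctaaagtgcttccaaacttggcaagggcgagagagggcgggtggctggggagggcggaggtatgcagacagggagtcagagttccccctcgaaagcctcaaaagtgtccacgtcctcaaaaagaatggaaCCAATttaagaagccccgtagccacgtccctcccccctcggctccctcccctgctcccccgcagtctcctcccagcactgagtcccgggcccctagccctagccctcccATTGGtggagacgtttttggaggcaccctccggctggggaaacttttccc
Col3a1 (chr1:45311288-45311587, + strand): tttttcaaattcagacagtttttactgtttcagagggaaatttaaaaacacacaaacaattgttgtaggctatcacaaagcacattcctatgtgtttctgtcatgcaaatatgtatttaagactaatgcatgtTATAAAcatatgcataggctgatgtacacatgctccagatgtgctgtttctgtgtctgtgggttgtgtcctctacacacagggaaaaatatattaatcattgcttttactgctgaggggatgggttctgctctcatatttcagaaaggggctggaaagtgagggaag
Col7a1 (chr9:108953336-108953635, + strand): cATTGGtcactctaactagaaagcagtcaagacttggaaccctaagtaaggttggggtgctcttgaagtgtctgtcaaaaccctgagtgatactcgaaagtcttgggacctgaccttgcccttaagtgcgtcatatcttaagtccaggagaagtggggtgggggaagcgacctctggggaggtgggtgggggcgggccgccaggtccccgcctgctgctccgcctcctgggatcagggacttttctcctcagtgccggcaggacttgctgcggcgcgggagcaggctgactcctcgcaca
Col18a1, outer start (chr10:77166481-77166780, - strand): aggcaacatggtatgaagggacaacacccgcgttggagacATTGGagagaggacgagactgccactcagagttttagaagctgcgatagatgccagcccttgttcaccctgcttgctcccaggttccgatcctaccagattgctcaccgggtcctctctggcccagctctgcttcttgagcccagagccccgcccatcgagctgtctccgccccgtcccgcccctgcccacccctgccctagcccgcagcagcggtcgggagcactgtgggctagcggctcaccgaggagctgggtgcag
Col18a1, inner start (chr10:77113656-77113955, - strand): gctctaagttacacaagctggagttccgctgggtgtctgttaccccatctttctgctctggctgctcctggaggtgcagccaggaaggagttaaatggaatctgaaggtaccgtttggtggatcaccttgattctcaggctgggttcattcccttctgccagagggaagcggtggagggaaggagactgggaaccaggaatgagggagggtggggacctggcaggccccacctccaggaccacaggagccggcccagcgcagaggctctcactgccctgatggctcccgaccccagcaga

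CCAAT or its reverse complement ATTGG was found in 12 of the 31 collagen windows (38.7%) and in 37.4% of all 32851 promoter windows of the same length. TATAAA or TTTATA was found in 5 of 31 (16.1%) against 13.6% of all windows, and GGGCGG or CCGCCC in 18 of 31 (58.1%) against 35.7%. Within the windows printed, Col1a2 had 2 matches to CCAAT and 2 to GGGCGG, and Col3a1 had 1 to TATAAA and none to the other motifs. Col3a1 also had no CG dinucleotide and 37.7% G and C, whereas Col4a1 had 37 CG dinucleotides and 74% G and C. Col1a2 and Col3a1 thus shared none of these 3 motifs. A match is a description of these letters and not a site.

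FACIT genes also went both ways. Col12a1, which coats type I fibrils, stood at 24.0 and 24.1 FPKM in monoculture EpCAM+ against 269.8 and 296 FPKM in monoculture EpCAM-, and at 28.3 and 27.8 FPKM in coculture EpCAM+ against 226 and 228 FPKM in coculture EpCAM- (log2 fold change -3.50 and -2.97). Col16a1, found in fibrils and near basement membranes, stood at 0.61 and 0.491 FPKM in monoculture EpCAM+ against 34.9 and 34.0 FPKM in monoculture EpCAM-, and at 1.15 and 1.23 FPKM in coculture EpCAM+ against 39.5 and 38.7 FPKM in coculture EpCAM- (-4.52 and -4.19). Col14a1, another fibril coat, stood at 0.0191 and 0 FPKM in monoculture EpCAM+ against 2.44 and 2.57 FPKM in monoculture EpCAM-, and at 0.036 and 0.0612 FPKM in coculture EpCAM+ against 5.23 and 5.33 FPKM in coculture EpCAM- (-1.80 and -2.58). These 3 genes fell in EpCAM+ in both cultures.

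Type IX collagen, the FACIT of cartilage fibrils, was on the epithelial side. Col9a3 stood at 9.36 and 8.82 FPKM in monoculture EpCAM+ against 0.152 and 0.11 FPKM in monoculture EpCAM-, and at 21.4 and 22.9 FPKM in coculture EpCAM+ against 0.411 and 0.346 FPKM in coculture EpCAM-. Its log2 fold change was 3.16 (SE 0.057, adjusted p = 5.27e-10, limma) in monoculture and 4.07 (SE 0.057, adjusted p = 1.44e-10, limma) in coculture. Col9a3 shares 234 exonic bases with Tcfl5 on the opposite strand, and Tcfl5 reached at most 0.0773 FPKM. Col9a2 stood at 0.648 and 0.536 FPKM in monoculture EpCAM+ against 0.0105 and 0 FPKM in monoculture EpCAM- (log2 fold change 0.66, adjusted p = 7.93e-06, limma, under 2-fold on the scale of FPKM + 1). The added 1 understates this change, and Col9a2 was called in monoculture with a pseudocount of 0.1 or 0.5. In coculture Col9a2 stood at 1.15 and 1.26 FPKM in EpCAM+ and was listed at 0 in both EpCAM- libraries; it is among the 5 called higher, and that call was lost under quantile normalization. Col9a1, the chain that completes type IX collagen, was at 0 in every library. Of the 5 chondrocyte genes in the files, Sox9, a transcription factor of cartilage and of ductal epithelium, stood at 86.9 and 87.4 FPKM in monoculture EpCAM+ against 3.24 and 3.27 FPKM in monoculture EpCAM-, while Acan and Hapln1 were at 0 in all libraries.

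The network gene Col8a1, of the type VIII lattice found under endothelium and in vessel walls, stood at 26.2 and 26.1 FPKM in monoculture EpCAM+ against 186 and 189 FPKM in monoculture EpCAM-. The coculture values were 14.8 and 14.2 FPKM in EpCAM+ against 202 and 205 FPKM in EpCAM- (log2 fold change -2.80 and -3.73). It fell in EpCAM+ in both cultures, and its partner Col8a2 stayed at 0.379 FPKM or less.

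In coculture EpCAM+, 5 fibrillar genes lay at close to the same percent of their EpCAM- level as other stromal genes. Over the 10 stromal genes that are not collagens, the EpCAM+ level was a median 0.131% and 0.14% of the EpCAM- level in the 2 monoculture libraries, with single genes from 0.0814% to 0.472%. In coculture it was a median 1.80% and 1.76%, with single genes from 1.51% to 2.31%. By group means, 5 of the 21 tested collagens lay inside this coculture range: Col1a1 (1.72%), Col1a2 (1.67%), Col3a1 (1.60%), Col5a2 (1.68%) and Col5a1 (2.03%). Col14a1 (0.921%) lay below it and 15 above. The range spans single libraries. By group means the stromal genes ran from 1.64% (Prrx1) to 2.21% (Tagln), and Col3a1 lay just below that narrower range. In monoculture 5 lay inside the range there: Col1a1 (0.168%), Col1a2 (0.112%), Col3a1 (0.134%), Col5a2 (0.134%) and Col14a1 (0.382%).

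Other collagens lay well above both ranges. The EpCAM+ level was 9.68% of the EpCAM- level in monoculture and 13.0% in coculture for Col4a1, 8.49% and 12.4% for Col12a1, 13.9% and 7.10% for Col8a1, and 24.5% and 61.4% for Col4a5. When the median stromal share was subtracted, Col1a1, Col1a2, Col3a1, Col5a2 and Col14a1 fell to 0 in each coculture EpCAM+ library, and Col1a2 in each of monoculture EpCAM+. The log2 fold change of Col1a1 then became -10.69 in monoculture and -12.03 in coculture, so the sizes given above for these fibrillar genes depend on this share. Col4a1 stood at -3.37 in monoculture and -3.13 in coculture. All 18 calls of each culture held after the subtraction. This was nearly fixed in advance, because taking a share of the higher fraction from the lower mostly widens a difference. What the stromal share in coculture EpCAM+ comes from was not tested.

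**Figure D4:**
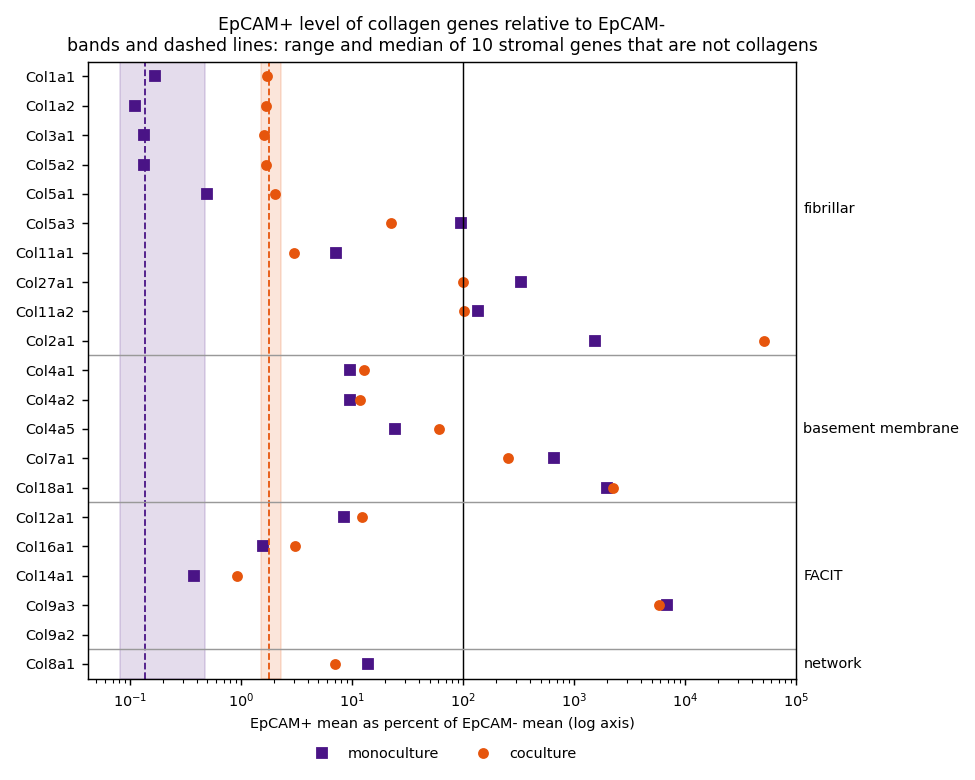
EpCAM+ mean as percent of the EpCAM- mean (horizontal axis, log scale) for the tested collagen genes (rows) in monoculture (squares) and coculture (circles); Col9a2 is not drawn because coculture EpCAM- was at 0. Shaded bands give the range over single libraries and dashed lines the median over 10 stromal genes that are not collagens. Points are group means, and Col1a1, Col1a2, Col3a1 and Col5a2 lie inside the band of each culture.

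Between the cultures of EpCAM+ cells, 6 of the 21 tested collagens were lower in monoculture and none higher, against 1.67% and 0.266% of all genes tested (1.94% in either direction). At any size of change 17 passed the adjusted p (limma), against 51.4% of all genes tested. The 6 were Col1a2 (log2 fold change -3.55), Col1a1 (-3.39), Col3a1 (-3.16), Col5a2 (-2.73), Col9a3 (-1.20) and Col5a1 (-1.08), with adjusted p from 4.40e-11 to 2.76e-06 (limma). For the 5 fibrillar genes the change ran beside that of the 10 stromal genes that are not collagens, of which 8 were lower in monoculture and none higher. After subtraction of the stromal share, Col1a2, Col3a1, Col5a1 and Col5a2 were no longer called. Col1a1 was then higher in monoculture (1.11, adjusted p = 1.71e-06, limma), at 1.27 and 1.04 FPKM. In both coculture libraries it was set to 0, as all values below 0 were, so no spread was left there. Before subtraction Col1a1 in monoculture EpCAM+ (0.168%) lay inside the stromal range, so its turned sign cannot be read as a rise. Quantile normalization also ended the call of Col5a1 (-0.89).

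Col9a3 was still called after the subtraction (-1.20). It stood at 9.36 and 8.82 FPKM in monoculture EpCAM+ against 21.4 and 22.9 FPKM in coculture EpCAM+, and EpCAM- cells held at most 0.411 FPKM. Col8a1 stood at 26.2 and 26.1 FPKM in monoculture EpCAM+ against 14.8 and 14.2 FPKM in coculture EpCAM+, a log2 fold change of 0.81 (adjusted p = 3.05e-07, limma) that missed the 2-fold limit and reached 1.18 after subtraction. Col27a1, at 3.66 and 3.46 FPKM in monoculture EpCAM+ against 1.76 and 1.92 FPKM in coculture EpCAM+, had 0.68. The basement membrane genes moved little: Col18a1 by 0.25, Col4a1 by 0.28, Col4a2 by 0.33, Col7a1 by 0.09 and Col4a5 by -0.22, each past the adjusted p of 0.05 (limma) and none called.

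In EpCAM- cells Col1a1, Col1a2 and Col5a2 differed little between cultures, and Col11a1, Col5a3, Col7a1 and Col4a5 changed the most. Of the 21 tested genes, 1 was higher in monoculture and 3 lower, against 2.56% and 1.96% of all genes tested (4.52% in either direction). At any size of change 18 passed the adjusted p (limma), against 62.7% of all genes tested. Col11a1 stood at 2.47 and 2.48 FPKM in monoculture EpCAM- against 18.4 and 17.4 FPKM in coculture EpCAM- (log2 fold change -2.44, SE 0.047, adjusted p = 1.17e-08, limma). Col5a3 stood at 14.2 and 13.7 FPKM in monoculture EpCAM- against 59.2 and 57.9 FPKM in coculture EpCAM- (-1.99, SE 0.033, adjusted p = 6.09e-09, limma). Both encode minor chains of fibrils, and both were lower in monoculture with no overlap.

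Col7a1 stood at 5.39 and 5.37 FPKM in monoculture EpCAM- against 13.1 and 13.2 FPKM in coculture EpCAM- (-1.15). Col4a5 stood at 47.3 and 47.7 FPKM in monoculture EpCAM- against 22.2 and 22.6 FPKM in coculture EpCAM- (1.05), a call that quantile normalization ended (0.99). Col4a1 (0.71) and Col4a2 (0.63) were past the adjusted p in the same direction as Col4a5 and under 2-fold. Col1a1 (-0.23), Col3a1 (-0.66) and Col5a2 (-0.21) were past the adjusted p on the lower side, Col5a1 (0.52) and Col12a1 (0.32) on the higher side, and Col1a2 did not pass it (-0.07, 95% interval -0.14 to -0.0049 before adjustment, adjusted p = 0.06, limma). With a pseudocount of 0.1, Col14a1 and Col9a3 were also called. The epithelial share of EpCAM- libraries, a median of 0.17% to 0.191% in monoculture and 0.2% to 0.266% in coculture, changed none of the 4 calls when subtracted. This was nearly fixed in advance, because so small a share takes little away. Col7a1 in coculture EpCAM- went from a mean of 13.16 to 13.09 FPKM.

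**Figure D5:**
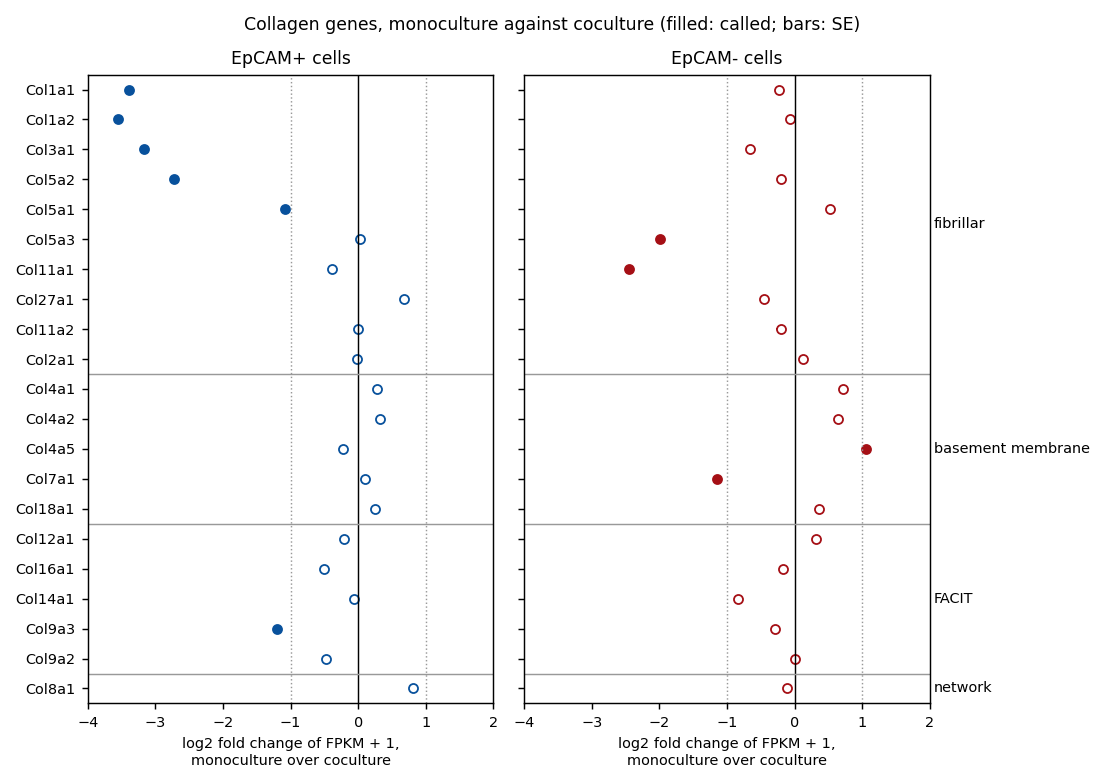
Log2 fold change of FPKM + 1 in monoculture over coculture (horizontal axes) for the 21 tested collagen genes (rows), in EpCAM+ cells at left and EpCAM- cells at right. Filled points were called, dotted lines mark 2-fold, and SE bars are mostly shorter than the points; in EpCAM+ the called genes are 5 fibrillar genes and Col9a3, and in EpCAM- they are Col11a1, Col5a3, Col7a1 and Col4a5.

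The interaction tests whether the EpCAM+ against EpCAM- difference itself changed with culture. It was called for 10 of the 21 genes, 4 higher and 6 lower, against 2.43% and 5.66% of all genes tested (8.09% in either direction). At any size 18 passed the adjusted p (limma), against 65.2% of all genes tested. Among all genes called, 30.0% were higher, and 41.9% with quantile normalization. The value is the log2 difference in monoculture minus that in coculture. It was 2.05 for Col11a1, 2.02 for Col5a3, 1.24 for Col7a1 and 1.13 for Col27a1, and below 0 for Col1a2 (-3.48), Col1a1 (-3.15), Col5a2 (-2.52), Col3a1 (-2.50), Col5a1 (-1.59) and Col4a5 (-1.27), with adjusted p from 7.76e-10 to 1.44e-05 (limma). All 10 stromal genes that are not collagens were also lower in it. After subtraction of the share, Col1a2, Col3a1, Col5a1 and Col5a2 were no longer called. Col1a1 turned to 1.34, which rests in part on its coculture EpCAM+ values being set to 0. Col11a1, Col5a3, Col7a1, Col27a1 and Col4a5 were still called. Col8a1, at 0.93 before, gained the call after the subtraction (1.30) and also with quantile normalization.

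The enzymes and helpers of collagen synthesis were read from a list of 31 genes in the files, of which 28 were tested. In EpCAM+ against EpCAM-, 1 was higher and 19 lower in monoculture, with a median log2 fold change of -2.16, and 1 was higher and 17 lower in coculture, with a median of -1.90. Of all genes tested, 15.5% were called higher and 12.6% lower in monoculture, with a median of 0.23, and 16.5% higher and 10.1% lower in coculture, with a median of 0.26. Pcolce, which enhances removal of the procollagen C-propeptide, stood at -7.94 in monoculture and -5.57 in coculture. Fkbp10, a procollagen chaperone of the endoplasmic reticulum, stood at -7.02 and -5.34, and Creb3l1, a transcription factor that drives type I collagen in bone of mice, at -4.16 and -4.87. P3h3 (-4.52 in monoculture), a prolyl 3-hydroxylase family member, and Tll1 (-3.95 in coculture), a procollagen C-proteinase, were also lower. Adamts3, which trims procollagen N-propeptides, was the gene called higher, at 2.53 FPKM in monoculture EpCAM+ against 0.0122 FPKM in monoculture EpCAM-, and at 3.12 FPKM in coculture EpCAM+ against 0.0247 FPKM in coculture EpCAM-.

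Of the 28 tested genes of this list, 2 (7.14%) were called between cultures in EpCAM+ cells, against 1.94% of all genes tested. In EpCAM- cells 3 (10.7%) were called, against 4.52%, and the interaction was called for 6 (21.4%), against 8.09%. The median log2 values of the list were -0.024, 0.10 and -0.11 in that order. The middle of the list thus moved little, while the part called was above that of all genes. In EpCAM+ cells, Pcolce (-1.86) and Fkbp10 (-1.45) were lower in monoculture; their EpCAM+ levels in coculture were 1.91% and 1.71% of EpCAM-, inside the stromal range, and neither was called after its subtraction. In EpCAM- cells, Adamts2, the main procollagen N-proteinase, stood at 49.8 FPKM in monoculture against 17.0 FPKM in coculture (1.5 on the log2 scale). Tll1 (-1.53) and Adamts14 (-1.44), a relative of Adamts2, were lower. The interaction was called higher for Adamts14 (1.64) and Tll1 (1.49) and lower for 4 genes, Pcolce (-2.37), Fkbp10 (-1.68), Adamts2 (-1.42) and Fkbp14 (-1.06). Pcolce, Fkbp10 and Fkbp14 lost that call after subtraction. N-proteinases thus differed in both directions between the cultures of EpCAM- cells.

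Of 12 genes for collagen receptors and uptake, 8 were tested. In EpCAM+ against EpCAM-, 1 was higher and 5 lower in monoculture, and 1 was higher and 6 lower in coculture. The medians were -4.14 and -2.33, and 28.1% of all genes tested were called in monoculture and 26.5% in coculture. The uptake receptor Mrc2 (-6.86 and -5.16), the fibrillar collagen receptor Ddr2 (-6.02 and -4.90), the integrin chain Itga11 (-5.67 and -3.24) and the collagen-degrading protease Ctsk (-5.46 and -3.87) were lower in EpCAM+ in monoculture and coculture. Itga2, an epithelial collagen receptor chain, was higher in monoculture (2.03), and Ddr1, the epithelial discoidin receptor, in coculture (1.35). Ddr1 stood at 41.3 FPKM in monoculture EpCAM+ against 42.8 FPKM in monoculture EpCAM-, and at 48.4 FPKM in coculture EpCAM+ against 18.4 FPKM in coculture EpCAM-. In EpCAM- cells Itga11 (2.16), Itga1 (1.36) and Ddr1 (1.17) were higher in monoculture than in coculture. In EpCAM+ cells Mrc2 was lower in monoculture (-1.25), a call lost after subtraction of the stromal share. The interaction was called for 7 of the 8, against 8.09% of all genes tested, higher for Itga2 (1.63) and lower for 6, the furthest being Itga11 (-2.43), Mrc2 (-1.70), Ctsk (-1.59) and Ddr1 (-1.39); Mrc2 and Ddr2 lost it after subtraction.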

How the data were processed

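Total RNA was sequenced as paired reads of 150 bp on an Illumina HiSeq, per the labels' protocols. The submitters' processing notes list build mm10 and, with neither version nor role, edgeR, HTSeq, SAMtools, HISAT2, cutadapt and FastQC. The authors deposited FPKM per gene, 1 file per library; the sources used here give no annotation, strand setting or scaling between libraries, and no counts or depths are known, so no counting intervals are given. Groups were taken from the titles. Values were transformed to log2(FPKM + 1), which understates changes of low genes, and modelled in limma (3.58.1, under R 4.3.3) as means of 4 groups over 8 libraries (4 residual degrees of freedom, eBayes with trend). The test covered genes reaching 1 FPKM in 2 or more libraries, with Benjamini-Hochberg adjustment over all 12012. With 2 libraries a group, the smallest p of an exact permutation test is 0.333. Calls needed an adjusted p below 0.05 together with a 2-fold change. The text names every collagen gene with a group mean of at least 1 FPKM, the rest with their maximum, and up to 4 called genes per direction and comparison of 2 lists. The share of the other fraction was the median ratio over 10 stromal or 12 epithelial genes. Alternatives were 2 pseudocounts, 2 filters, 3 scalings, 2 forms of eBayes, a replicate block, fits of 4 libraries, each library left out, and subtraction of that share. Values that the subtraction took below 0 were set to 0. The collagen genes, lists and tests were chosen with earlier results of these data known. Tables were made with Python 3.11.15 and pandas 2.3.3, figures with matplotlib 3.10.9.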

Additional observations from a re-analysis of the deposited data

Results flagged for a closer look

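The interaction test called 10 of the 21 tested collagen genes, against 8.09% of all genes tested. For these 10 the difference between EpCAM+ and EpCAM- cells changed between the cultures (limma, adjusted p from 7.76e-10 to 1.44e-05). As log2 difference in monoculture minus that in coculture, these were Col1a2 (-3.48), Col1a1 (-3.15), Col5a2 (-2.52), Col3a1 (-2.50), Col5a1 (-1.59), Col4a5 (-1.27), Col27a1 (1.13), Col7a1 (1.24), Col5a3 (2.02) and Col11a1 (2.05). For Col5a3, Col11a1, Col7a1 and Col4a5 the change between cultures was called in EpCAM- cells. For Col1a1, Col1a2, Col3a1, Col5a1 and Col5a2 it was called in EpCAM+ cells. There 8 of 10 other stromal genes were also called lower in monoculture, against 1.67% of all genes tested. For Col27a1 it was called in neither fraction (0.68 in EpCAM+ and -0.45 in EpCAM-). Subtraction of the stromal share ended the interaction call of Col1a2, Col3a1, Col5a1 and Col5a2. It turned Col1a1 to 1.34, which rests in part on coculture EpCAM+ values set to 0. Col4a5, Col27a1, Col7a1, Col5a3 and Col11a1 were still called. Col8a1 was called only after the subtraction (1.30) or with quantile normalization.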

How the results depend on the processing

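The number of collagen genes called was 18 in monoculture and 18 in coculture for EpCAM+ against EpCAM-, 6 and 4 for monoculture against coculture in EpCAM+ and EpCAM- cells, and 10 for the interaction. Leaving out each library in turn gave 18 to 18, 18 to 18, 6 to 6, 4 to 4 and 10 to 10, where a group left with 1 library is assumed to vary like the others. The replicate block gave 18, 18, 6, 4 and 10; same-numbered libraries share only a number (correlation of deviations -0.0726 to 0.0406). Subtraction of the share of the other fraction lowered the count in EpCAM+ cells to 3. These were Col9a3, Col1a1 and Col8a1, the last newly called (1.18). Only Col9a3 was called in the same direction as before, and Col1a1 had its sign turned against coculture values set to 0. Signs turned there for Col1a1 (1.11), Col3a1 (0.039), Col5a1 (0.45), Col5a2 (0.0061), Col16a1 (0.0089) and Col14a1 (0.011). In the interaction it turned Col1a1 (1.34), Col1a2 (0.071), Col3a1 (0.70), Col5a2 (0.21) and Col16a1 (0.19), and in coculture, EpCAM+ against EpCAM-, it turned Col27a1 (-0.0082). The other turned values were of genes not called: in coculture, Col11a2 and Col27a1 with a constant sum (-0.0313 and -0.0554), median of ratios (-0.13 and -0.18) and quantile normalization (-0.28 and -0.33), and in EpCAM+ between cultures, Col2a1 with median of ratios (0.019) and quantile normalization (0.16). With 1 library left out, such values ranged across 0, in coculture for Col11a2 (-0.0336 to 0.0724) and Col27a1 (-0.0327 to 0.0452), and in EpCAM+ cells between cultures for Col11a2 (-0.0755 to 0.0846), Col2a1 (-0.0607 to 0.0323) and Col5a3 (-0.000865 to 0.0564). Over single genes and all 20 alternatives, 2017 values kept direction and side of the threshold, and 28 turned. Of the rest, which kept direction, 6 lost and 8 gained the call. Some turned values lost the call as well. After subtraction these were Col3a1, Col5a1 and Col5a2 in EpCAM+ cells between cultures, and Col1a2, Col3a1 and Col5a2 in the interaction. The filter of 5 FPKM removed Col2a1, Col9a2, Col11a2 and Col27a1 from testing. Depth is unknown, which limits what can be said of genes near 1 FPKM such as Col11a2, Col9a2 and Col2a1.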
